A study of Mus musculus with 7 samples.

Results

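The probe sets for immunoglobulin chains, for Jchain and for Pigr were followed in mouse colon after repeated TNBS enemas. TNBS, trinitrobenzene sulphonic acid, is a hapten used to induce colitis. The probe sets were found by their annotated gene symbols (heavy chain, kappa and lambda segments, without Ighmbp2), and 73 of the 12422 probe sets on the array qualified. Of these, 36 belong to the heavy chain locus on chromosome 12, 33 to the kappa locus on chromosome 6 and 2 to the lambda locus on chromosome 16, beside 1 each for Jchain (chromosome 5) and Pigr (chromosome 1). By symbol, 29 name a constant segment, 34 a variable segment and 8 both. The 73 probe sets carry only 37 distinct symbols, and 32 have an ID ending in _f_at, the array maker's mark for probes shared by a sequence family. Probe sets of 1 locus are therefore not independent readings, and each is described on its own. The annotation gives the segment, but probe sequences were not used here, so the part of a rearranged transcript that a probe set named Ighm or Ighg3 reads was not checked.

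The mice were outbred CD-1 females of 10 to 12 weeks at the start, and all of them received 6 enemas. TNBS mice had TNBS in ethanol and control mice had saline, so every comparison sets TNBS with ethanol against saline without it. RNA came from colon tissue about 4 cm (± 0.5) above the anus and was pooled over the mice of a group. The week 6 TNBS pool held 6 mice killed 3 days after the last enema. The week 8 TNBS pool held 4 mice at 2 weeks, the week 10 pool 5 mice at 4 weeks and the week 12 pool 4 mice at 6 weeks. As controls, 5 saline mice of week 6 were pooled and put on 2 arrays. The later saline pool held 4 mice, 2 of week 8 and 2 of week 10, and served as the control for weeks 8, 10 and 12. With 7 arrays and 6 pools, no group has a second pool, and the spread between mice was not measured.

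Plasma cells of the gut wall mostly make immunoglobulin A. Its heavy chain (Igha) pairs with a kappa or lambda light chain, and the joining chain (Jchain) links IgA or IgM monomers into polymers. Epithelial cells carry those polymers into the lumen with the polymeric immunoglobulin receptor (Pigr), whose outer part stays on the antibody as secretory component. Each B cell clone uses its own variable segments, so a variable segment probe set reports on the clones that use it and on close relatives of that segment.

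RefSeq held upstream sequence for 2 of the genes, Pigr and Jchain. They are shown because both partners of polymeric IgA have a single gene and a single probe set here, and because they differed in opposite directions from saline at week 10. The 250 bases before each start site (GRCm38.p6) are written 5′ to 3′ on the gene's own strand, chr1:130826434-130826683 on the plus strand for Pigr and chr5:88527898-88528147 on the minus strand for Jchain. Capitals mark the only match to the motifs searched on both strands.
Pigr: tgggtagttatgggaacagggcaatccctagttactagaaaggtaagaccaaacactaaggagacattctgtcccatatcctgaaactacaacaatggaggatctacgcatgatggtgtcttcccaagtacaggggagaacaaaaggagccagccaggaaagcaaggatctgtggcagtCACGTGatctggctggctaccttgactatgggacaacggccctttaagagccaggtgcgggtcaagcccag
Jchain: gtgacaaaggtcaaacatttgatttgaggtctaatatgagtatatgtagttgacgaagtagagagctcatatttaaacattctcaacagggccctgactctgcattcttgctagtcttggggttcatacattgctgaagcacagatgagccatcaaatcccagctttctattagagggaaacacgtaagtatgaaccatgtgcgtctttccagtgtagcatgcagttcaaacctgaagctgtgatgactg
The match in Pigr is CACGTG, the E-box bound by upstream stimulatory factors, and 6.02% of 32851 promoters hold it in the same window. The other letters searched were ATTTGCAT (octamer, in 1.6% of promoters), the core of the interferon-stimulated response element (2.98%), TTCNNNGAA (STAT, 7.02%) and TATAAA (12.4%), and neither stretch holds them. None of these 5 motifs contains another, though the interferon and STAT motifs can share bases.

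Values are array signals, scaled so that a trimmed mean of each array is the same. Array medians were 51.8 to 61.2, and low signals, 45.4% to 49.2% of each array, were set to a floor of 50 before log2. The repeat arrays of week 6 saline correlated at r = 0.987 across probe sets, and other pairs of arrays at 0.952 to 0.981. The 3′ to 5′ signal ratio of beta-actin, a measure of RNA quality and labelling, was 1.24 in the week 6 TNBS pool, against 1.14 and 1.24 on the week 6 saline arrays, and lay between 0.798 and 0.818 on the 4 later arrays. Its part in any difference between week 6 and later arrays was not tested. Markers of the labelled tissue were present: 16 of 18 colon epithelium genes and 10 of 10 smooth muscle genes on the array passed the filter.

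Of the 73 probe sets, 51 reached a signal of 100 in at least 1 pool and were compared, as were 5463 of all probe sets. Another 14 were under 50 on every array. Both lambda probe sets, named Iglc1 and Iglc1 with Iglv1, failed this filter, so light chains below are kappa. Of the 51, 3 passed only through the week 6 saline pool (1 Ighm, 1 Ighg3 and 1 set shared by Ighg3, Igha and Ighm). An Ighv14-2 set, 1 of the 51, passed only through the week 6 TNBS pool. These had to differ from the other pools. Ighm (97577_f_at) passed only through the saline pools. Only through TNBS pools passed Ighm (101870_at, weeks 8 and 10), Ighv14-2 (92740_at, weeks 6 and 12) and Ighd (101157_at, weeks 6 and 8). Each had to be higher in those pools than in the other treatment.

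The immunoglobulin signals spanned a wider range than most of the array, and the week 6 saline pool stood at the top of it. Over the 6 pools the median range of the 51 probe sets was 1.18 on the log2 scale (0.67 to 3.13), beside 0.71 over all 5463. The week 6 saline pool was the highest of the 6 for 27 of the 51 (52.9%, beside 19.1% of all probe sets). The week 12 TNBS pool was the lowest for 31 (60.8%, beside 15.2%) and the highest for 0 (18.1% of all). On both week 6 saline arrays 23 of the 51 (45.1%) had a signal above the other 5 arrays, beside 12.1% of all probe sets. Only 1, an Ighv14-2 set, lay below the other 5 on both, beside 10.6%. The sets that passed the filter only through the week 6 saline pool are among the 27 and the 23. They had to be highest in that pool. In bulk tissue, fewer antibody-secreting cells and less immunoglobulin RNA per cell cannot be told apart.

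**Figure D1:**
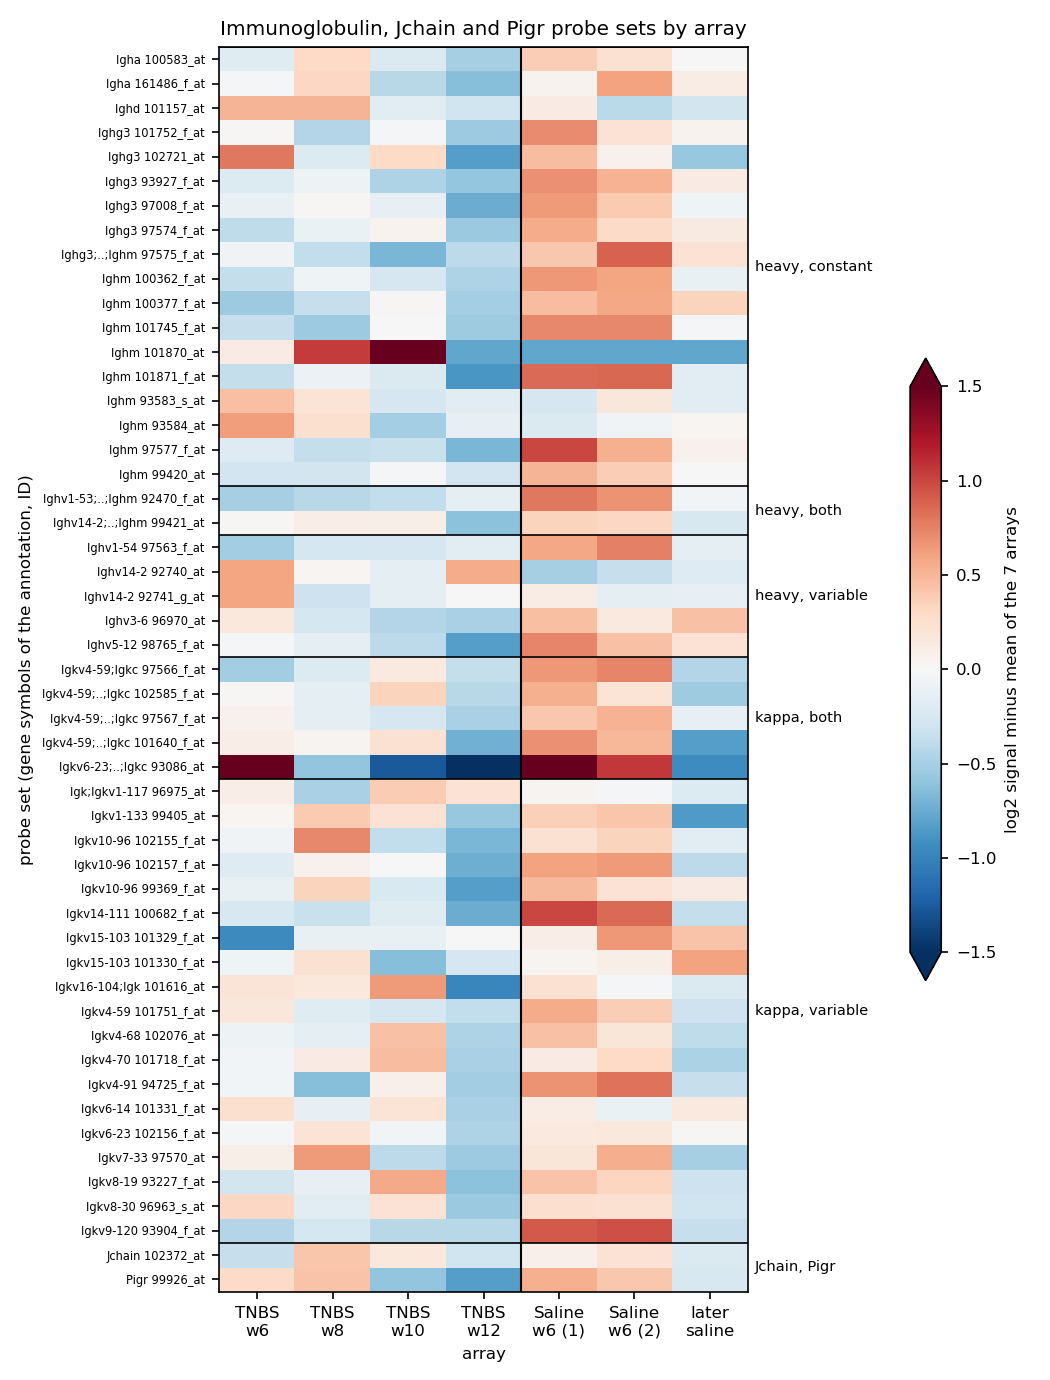
Log2 signal of the 51 probe sets (rows, grouped by chain and segment) on the 7 arrays (columns), each row centred on its mean over the arrays, with red above and blue below that mean. The columns of both week 6 saline arrays are red for most heavy constant sets, and the week 12 TNBS column is blue for most rows.

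The comparison of the week 6 TNBS pool with the week 6 saline pool asks which antibody transcripts differ 3 days after the last enema. In it, 39 of the 51 probe sets (52% of all probe sets) were lower after TNBS, with a median log2 difference of -0.40, beside -0.02 over all probe sets. At least 2-fold lower were 9 of the 51 (17.6%), beside 1.1% of all probe sets. The 3 sets that passed the filter only through week 6 saline are among the 39 and had to be lower. Of these 3, 1 (101745_f_at) is also among the 9. Ighm (97577_f_at), which passed only through the saline pools, is among the 39 and had to be lower too. At least 2-fold higher was 1, an Ighv14-2 set, beside 2.71%, and 0 were when the first saline array was left out. That set (92740_at) passed the filter only through the TNBS pools of weeks 6 and 12 and had to be higher there. Each matched comparison has 1 pool on a side, so these are counts without a test, and the repeat hybridisation of the saline pool gives the only measure of array error. Between those 2 arrays none of the 51 differed 2-fold in either direction (0.439% of all probe sets in each), and the median absolute difference was 0.16. The later comparisons share 1 saline pool and are not independent of each other. At week 8, 32 of the 51 were higher after TNBS than after saline (background 42.7%; median 0.14, beside -0.07 over all), with 3 at least 2-fold higher (background 1.85%) and 0 lower (1.89%). At week 10 the split was even, with 23 higher (background 47%) and 28 lower (52.4%), 3 at least 2-fold higher (1.01%) and 1 lower (0.915%). Ighm (101870_at) is among the 3 at week 8 and at week 10. It passed the filter only through those TNBS pools and had to be higher there. Ighd, among the 32 at week 8, passed only through the TNBS pools of weeks 6 and 8 and had to be higher too. At week 12, 42 were lower (background 51%; median -0.35, beside -0.01 over all), of which 1 by at least 2-fold (1.03%), and 0 were 2-fold higher (0.915%).

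The IgA heavy chain was lower in TNBS colon at week 6 and week 12 and close to saline or above it in between. Igha (100583_at) had signals of 5299, 7444, 5182 and 4263 in the TNBS pools of weeks 6, 8, 10 and 12, against 7778 and 7053 on the week 6 saline arrays and 6050.5 in the later saline pool. The week 6 TNBS value lay below both arrays of its own control and also below the later saline pool, and the week 8 value lay between the control arrays of week 6. Against the matched saline pool Igha was 1.40-fold lower at week 6, 1.23-fold higher at week 8, 1.17-fold lower at week 10 and 1.42-fold lower at week 12. In the same 4 comparisons the 121 other probe sets with a mean signal of 3000 or more, none immunoglobulin or Pigr, had median log2 differences of -0.03, 0.30, -0.06 and -0.26. The Igha differences were -0.48, 0.30, -0.22 and -0.51, so at week 8 Igha stood with the bright signals of the array as a whole. A second Igha set (161486_f_at), whose probes are shared, had 128, 162, 97.3 and 83.9 in the TNBS pools, against 135 and 197 in week 6 saline and 141 in later saline. Its log2 differences had the same signs as those of the first set in all 4 comparisons (-0.35, 0.20, -0.54 and -0.75), but its 2 control arrays differed by 0.55 on that scale, as much as the week 10 difference.

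Jchain, the joining chain of polymeric IgA and IgM, was higher than saline at weeks 8 and 10. Its signals were 986, 1666, 1396 and 1018 in the TNBS pools, against 1318 and 1455 in week 6 saline and 1081 in later saline. The week 6 TNBS pool lay below both arrays of its control, and the week 12 pool differed from later saline by 0.09 on the log2 scale. Relative to the matched controls Jchain was 1.40-fold lower at week 6, 1.54-fold higher at week 8, 1.29-fold higher at week 10 and 1.06-fold lower at week 12.

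Pigr, the receptor that carries polymeric antibody across the epithelium, was above its control only at week 8. Pigr had 8302, 9152, 4531 and 3838 in the TNBS pools, against 9841 and 8996 in week 6 saline and 5776 in later saline. The 3 week 6 arrays and the week 8 array were high, and the later saline pool and the TNBS pools of weeks 10 and 12 were low. It was 1.13-fold lower at week 6, 1.58-fold higher at week 8, 1.27-fold lower at week 10 and 1.50-fold lower at week 12. Between the saline pools themselves Pigr was 1.63-fold lower in later saline than in week 6 saline, which is as large as any of its TNBS differences. The bright probe sets described with Igha also stood higher at week 8 and lower at week 12 by their medians. The 4 named colon epithelium genes, the galectin Lgals4, the trefoil peptide Tff3, the goblet cell protein Fcgbp and the secreted goblet cell protein Clca1 were higher at week 8 (0.27, 0.54, 0.73 and 0.42 on the log2 scale) and lower at week 12 (-0.54, -0.37, -0.35 and -0.38). Between later and week 6 saline they differed by -0.47, -0.61, -1.05 and -0.01, while the whole list had a median of 0.11, with 10 genes higher and 6 lower. The part of epithelial content in the Pigr values was not tested.

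**Figure D2:**
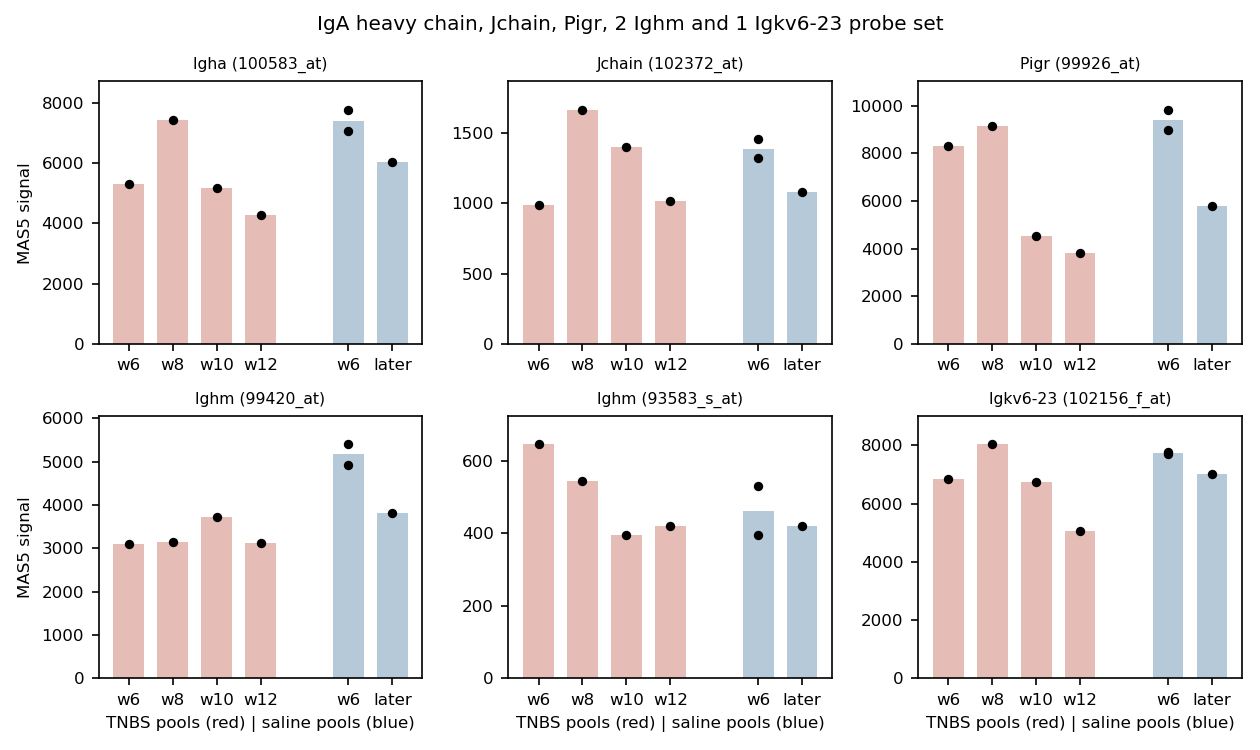
Signal of Igha, Jchain, Pigr, 2 Ighm probe sets and 1 Igkv6-23 probe set, with the TNBS pools of weeks 6 to 12 in red and the saline pools in blue. Bars start at 0 and give the pool's signal (the mean of 2 arrays for week 6 saline), and points are single arrays. Jchain is above later saline at weeks 8 and 10, and Pigr divides into a high set of week 6 and week 8 pools and a low set of the rest.

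Ighm names the heavy chain of IgM, the antibody of naive B cells, and its 9 probe sets above the filter did not move as one. Of these 9, 6 were lower at week 6 and 3 were higher. Ighm (99420_at) had 3107, 3148, 3730 and 3115 in the TNBS pools, against 5404 and 4926 in week 6 saline and 3803 in later saline. All 4 TNBS pools lay below all 3 saline arrays, by 1.66-fold at week 6 and by 1.02-fold to 1.22-fold later. The set 101871_f_at had 108, 131, 119 and 75.5 in the TNBS pools, against 251 and 251 in week 6 saline and 124 in later saline. It was 2.32-fold lower at week 6, but nearly as much lower in later saline than in week 6 saline (2.03-fold). The sets 100377_f_at, 101745_f_at, 100362_f_at and 97577_f_at were 2.09-fold, 2.10-fold, 1.97-fold and 1.95-fold lower at week 6. Of these, 101745_f_at passed the filter only through week 6 saline and 97577_f_at only through the saline pools.

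Other Ighm sets ran the other way. The set 93583_s_at had 646, 543, 397 and 421 in the TNBS pools, against 396 and 530 in week 6 saline and 419 in later saline. Its week 6 TNBS signal lay above both control arrays, though those arrays themselves differed by nearly as much. The set 93584_at had 261, 200, 118 and 155 in the TNBS pools, against 145 and 162 in week 6 saline and 172 in later saline, and was 1.70-fold higher at week 6. The set 101870_at had 93.2, 178, 328 and 45.8 in the TNBS pools, against 34.7 and 25.8 in week 6 saline and 5.3 in later saline. Both saline pools and the week 12 TNBS pool were under the floor, so it was at least 1.86-fold higher at week 6, at least 3.55-fold higher at week 8 and at least 6.55-fold higher at week 10. Week 10 was the widest matched difference of the 51 probe sets, while none of the other Ighm sets was 2-fold higher in any TNBS pool than in its control. The set 101870_at passed the filter only through the TNBS pools of weeks 8 and 10 and had to be higher there.

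Ighg3, the heavy chain of an IgG subclass, split by type of probe set. At week 6 its 4 sets with an ID ending in _f_at were lower in TNBS colon, and its set with a plain ID was higher. The lower sets use probes shared by a sequence family, so their difference cannot be assigned to Ighg3. The set 93927_f_at had 309, 338, 258 and 239 in the TNBS pools, against 576 and 513 in week 6 saline and 389 in later saline. All 4 TNBS pools lay below the 3 saline arrays, by 1.76-fold at week 6. The sets 97574_f_at, 97008_f_at and 101752_f_at were 1.74-fold, 1.55-fold and 1.36-fold lower at week 6. The remaining set, 102721_at, had 153, 76.7, 109 and 43.6 in the TNBS pools, against 123 and 92.4 in week 6 saline and 59.7 in later saline. It was above saline at weeks 6, 8 and 10 (1.44-fold, 1.28-fold and 1.82-fold), where the other 4 sets had log2 differences between -0.82 and 0.08. The set shared by Ighg3, Igha and Ighm (97575_f_at) was lower in all 4 comparisons, with log2 differences of -0.69, -0.59, -0.91 (a bound, as the week 10 TNBS signal was under the floor) and -0.62.

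Ighd, the heavy chain of IgD that naive B cells carry beside IgM, had 151, 151, 95.5 and 86.1 in the TNBS pools, against 116 and 80.4 in week 6 saline and 88.1 in later saline. The pools of weeks 6 and 8 were the high ones, 1.57-fold and 1.71-fold above their controls, and those of weeks 10 and 12 lay within the spread of the saline arrays. The 2 control arrays of week 6 differed by 0.52 on the log2 scale, nearly the week 6 difference of 0.65. Ighd passed the filter only through the TNBS pools of weeks 6 and 8 and had to be higher there.

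In 7 probe sets the annotation names a variable and a constant segment together. The heavy chain set of Ighv1-53, Ighv1-72 and Ighm (92470_f_at) had 135, 143, 147 and 175 in the TNBS pools, against 330 and 305 in week 6 saline and 185 in later saline. All 4 TNBS pools lay below the saline arrays, by 2.35-fold at week 6. The set of Ighv14-2, Ighg3, Igha and Ighm (99421_at) had 245, 259, 257 and 157, against 305 and 299 in week 6 saline and 205 in later saline. Its TNBS pools lay below week 6 saline, and the first 3 lay above later saline.

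The kappa sets of this kind include Igkc, the single kappa constant segment. The set 93086_at (Igkv6-23, Igkv4-53, Igkv8-30, Igkj1 and Igkc) had 8211, 1907, 1199 and 941 in the TNBS pools, against 10248 and 6022 on the week 6 saline arrays and 1491 in later saline. It separated the 3 week 6 arrays from the 4 later ones, whichever enema the mice had, and was 5.27-fold lower in later than in week 6 saline. Signals above all 4 later arrays on the 3 week 6 arrays were found in 4 of the 51 (background 10.2%) and signals below them in 0 (8.33%). Its 2 saline arrays differed by 0.77 on the log2 scale, the widest repeat difference of the 51, and the beta-actin ratio given above splits the arrays in the same way. Of the other 4 kappa sets with Igkc, 97567_f_at also had its 3 week 6 arrays (1326 in TNBS, against 1680 and 1824 in saline) above the 4 later ones, with 1149, 1068 and 909 in TNBS and 1167 in later saline, and 3 did not. Igkv4-59 with Igkv4-72 and Igkc (101640_f_at) had 1337, 1276, 1461 and 758 in the TNBS pools, against 1997 and 1754 in week 6 saline and 699.5 in later saline. At week 10 it was 2.09-fold higher than later saline, yet below both week 6 saline arrays. Igkv4-59 with Igkc (97566_f_at) had 325, 405, 516 and 364, against 731 and 772 in week 6 saline and 344 in later saline, and was 2.31-fold lower at week 6. The sets 102585_f_at and 97567_f_at, which name Igkv4-59 and Igkv4-70 among others, were 1.28-fold and 1.32-fold lower at week 6, and 1.82-fold higher and 1.09-fold lower at week 10.

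Variable segments of the heavy chain were few (5 above the filter) and split. Ighv1-54 (97563_f_at) had 389, 465, 469 and 497 in the TNBS pools, against 835 and 941 in week 6 saline and 506 in later saline. Week 6 saline alone was high, and all 5 other arrays lay close together, with a 2.28-fold lower TNBS signal at week 6 and 1.02-fold to 1.09-fold later. Ighv5-12 (98765_f_at) had 395, 362, 305 and 225, against 663 and 543 in week 6 saline and 465 in later saline. Its TNBS pools lay below all saline arrays at every time, and the gap was 2.07-fold at week 12. Ighv3-6 (96970_at) had 195, 145, 129 and 124, against 238 and 193 in week 6 saline and 235 in later saline, with 1.63-fold, 1.83-fold and 1.89-fold lower signals at weeks 8, 10 and 12. Here the saline pools were alike, and the later TNBS pools stood below both. Ighv14-2 (92740_at) had 141, 95.6, 85.1 and 138, against 66.3 and 73.7 in week 6 saline and 81.7 in later saline. It was the only 1 of the 51 in which all 4 TNBS pools lay above all 3 saline arrays (background 4.7%). The gap was 2.02-fold at week 6 and 1.68-fold at week 12. The set passed the filter only through the TNBS pools of weeks 6 and 12 and had to be higher there. The second Ighv14-2 set (92741_g_at) was 1.52-fold higher at week 6 and had log2 differences of -0.19, -0.01 and 0.11 later.

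Kappa variable segments made up 19 of the 51. Igkv6-23 (102156_f_at) had 6825, 8040, 6740.4 and 5057 in the TNBS pools, against 7703 and 7769 in week 6 saline and 7015 in later saline. Only the week 12 pool stood apart, 1.39-fold below later saline. Igkv9-120 (93904_f_at) had 349, 394, 356 and 356 in the TNBS pools, against 901 and 927 in week 6 saline and 373 in later saline. Igkv14-111 (100682_f_at) had 414, 389.5, 433 and 293, against 982 and 882 in week 6 saline and 383 in later saline. In both, week 6 saline alone was high, and the week 6 TNBS pool (2.62-fold and 2.25-fold lower) stood close to the later saline pool. Igkv4-91 (94725_f_at) had 690.4, 457.5, 750.2 and 495, against 1136 and 1251 in week 6 saline and 559 in later saline. It too was high in week 6 saline, at 1.73-fold above the week 6 TNBS pool.

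Other kappa segments were above later saline at week 8 or 10, and for the 6 sets given first here both week 6 saline arrays lay above later saline as well. Igkv1-133 (99405_at) had 428, 552, 485 and 282 in the TNBS pools, against 537 and 560.0 in week 6 saline and 232 in later saline. It was 2.37-fold and 2.09-fold above later saline at weeks 8 and 10, while the week 8 signal lay between the week 6 saline arrays. Igkv4-70 (101718_f_at) had 905, 1017, 1278 and 663, against 1011 and 1143 in week 6 saline and 669.5 in later saline. Its week 10 pool was the highest of all and 1.91-fold above later saline. Igkv7-33 (97570_at) was 2.21-fold higher at week 8, at signals of 125 against 56.6, close to the floor, and week 6 saline had 90.7 and 117. At week 10 Igkv8-19 (93227_f_at) and the set of Igkv16-104 (101616_at) were 1.84-fold and 1.80-fold higher, and at week 8 Igkv10-96 (102155_f_at) was 1.84-fold higher, with 592, against 322 in later saline and 420 and 452 in week 6 saline. The other 2 Igkv10-96 sets had log2 differences of 0.46 and 0.21 at week 8, and 1 of them (99369_f_at) was 1.93-fold lower at week 12.

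**Figure D3:**
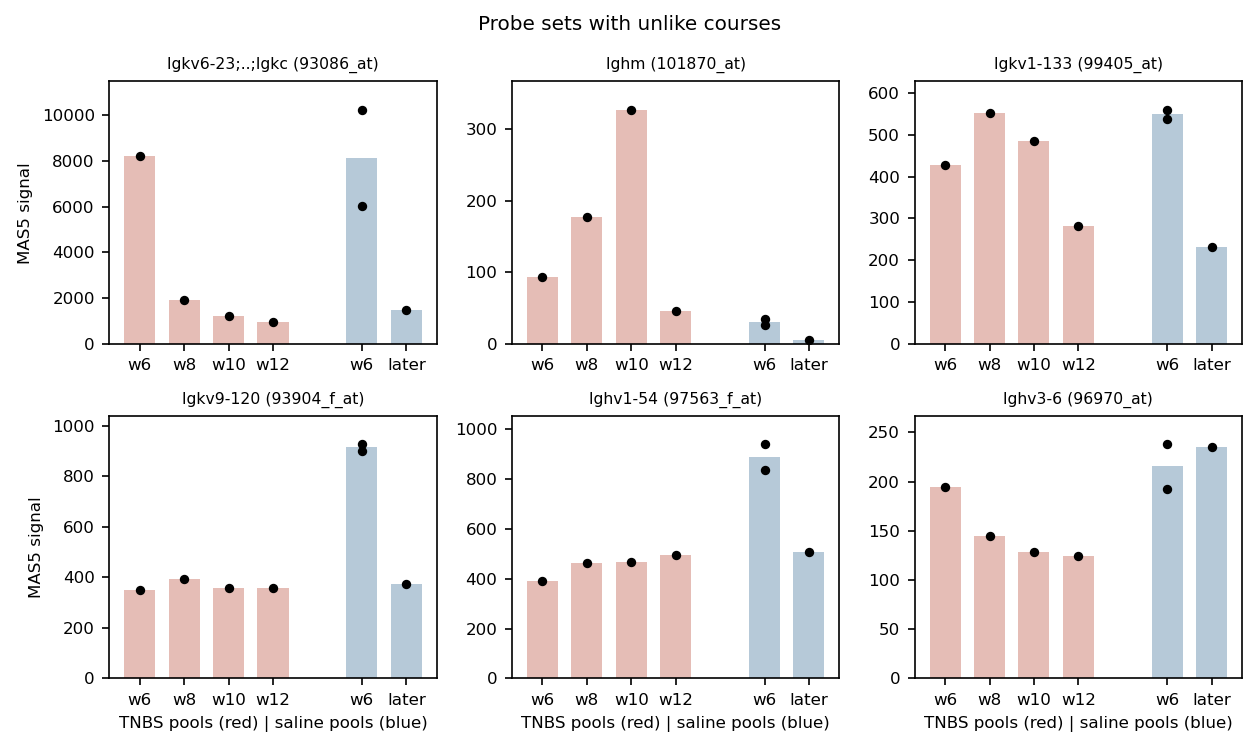
Signal of 6 probe sets with unlike courses, TNBS pools in red, saline pools in blue, bars from 0 and points for single arrays. The kappa set 93086_at is high on the 3 week 6 arrays, Ighm 101870_at is high only in TNBS pools of weeks 8 and 10, and Igkv9-120 and Ighv1-54 are high only in week 6 saline.

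The remaining kappa segments had no common course. Igkv15-103 (101329_f_at) had 57.9, 104, 104 and 112 in the TNBS pools, against 120 and 175 in week 6 saline and 151 in later saline. All 4 TNBS pools lay below the saline arrays, by 2.50-fold at week 6 and by 1.35-fold to 1.45-fold later. A second Igkv15-103 set (101330_f_at) had 119, 146, 80.3 and 105, against 128 and 132 in week 6 saline and 189 in later saline, and was 2.35-fold lower at week 10. Igkv6-14 (101331_f_at) had 1030.2, 799, 1005 and 619, against 937 and 812 in week 6 saline and 961 in later saline, and was 1.18-fold higher at week 6 and 1.55-fold lower at week 12. Igkv1-117 (96975_at, also annotated Igk) was 1.07-fold higher at week 6 and 1.34-fold higher at week 12. Igkv4-68 (102076_at) was 1.31-fold lower at week 6 and 1.76-fold higher at week 10, and Igkv8-30 (96963_s_at) had log2 differences of 0.07, 0.14, 0.51 and -0.26.

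Constant and variable segments lay on the same side of saline at weeks 6, 8 and 12 by their medians, and narrowly on opposite sides at week 10. At week 6 the median log2 difference was -0.66 over 18 constant sets, of which 13 were lower, and -0.31 over 24 variable sets, of which 18 were lower. Of all probe sets 52% were lower then. At week 8 the medians were 0.06 and 0.14, at week 10 -0.08 and 0.07, and at week 12 -0.55 and -0.28. At week 10, 4 of 18 constant and 14 of 24 variable sets were higher than later saline, beside 47% of all probe sets. The difference between the classes was not tested. The SD among the constant sets was 0.71 at week 6 and among the variable sets 0.58, so the 2 classes overlapped widely at that time. All sets named for a constant segment alone and above the filter are heavy chain sets, while 19 of the 24 variable sets are kappa, so segment and chain cannot be told apart in this contrast.

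Heavy and kappa chains parted most at week 10. There, 6 of 25 heavy sets and 16 of 24 kappa sets were higher than later saline (47% of all probe sets), with medians of -0.09 and 0.29. Later saline itself stood further below week 6 saline for kappa sets (median -0.69) than for heavy sets (-0.41). The part of the saline pool in the parting was not tested. At week 6 the medians were -0.61 for heavy and -0.36 for kappa sets, at week 8 -0.12 and 0.20, and at week 12 -0.51 and -0.28. Among variable segments alone, the 5 heavy sets had a median of -0.11 and the 19 kappa sets of 0.18 at week 10. These medians lie within the SD among sets (0.69 for heavy and 0.58 for kappa at week 10), and the difference between chains was not tested, since the sets share probes and each pool is single.

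**Figure D4:**
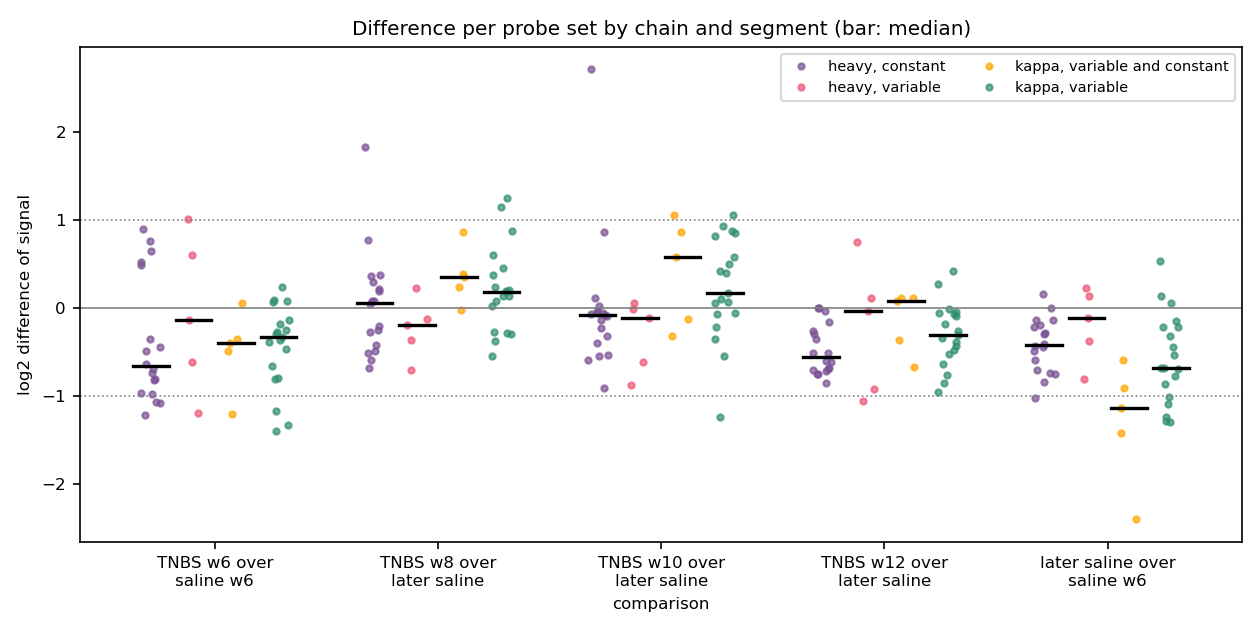
Log2 difference per probe set (points) in the 4 comparisons of TNBS with saline and in later over week 6 saline, by chain and segment, with the median as a bar and dotted lines at 2-fold. Heavy constant sets have a median of -0.66 at week 6, and kappa variable sets are mostly above 0 at week 10. Between the saline pools the medians of all classes lie below 0, with some single sets above it.

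The type of probe set went with the size of the week 6 difference. Of the 31 sets with an ID ending in _f_at, 30 were lower at week 6 (median -0.70) and all 9 that were at least 2-fold lower were of this type. Of the 17 with a plain ID, 9 were lower (median -0.14) and 0 were 2-fold lower. Over all probe sets 52% were lower at week 6 and 1.1% were at least 2-fold lower, so the plain sets lay near the background. Shared probes cannot assign that difference to the named segment, and the share of the family behind it was not tested.

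Both saline pools differed from each other about as much as week 6 TNBS differed from saline. In later saline 44 of the 51 were lower than in week 6 saline (48.7% of all probe sets were), with a median log2 difference of -0.54, beside 0.01 over all. At least 2-fold lower were 9 (background 1.17%) and higher 0 (1.03%). The kappa sets had a median of -0.69 and the heavy sets of -0.41. This contrast and the week 6 contrast share the week 6 saline pool. Set against the later saline pool instead of its own, the week 6 TNBS pool had a median of 0.10 (-0.01 over all probe sets), with 1 probe set at least 2-fold lower (background 1.59%) and 2 higher (3.37%). Set against the week 6 saline pool, the TNBS pools of weeks 8, 10 and 12 had medians of -0.50, -0.52 and -0.96, beside -0.10, -0.02 and 0.01 over all probe sets. At least 2-fold lower were 8 (background 3.88%), 9 (2.05%) and 21 (2.62%). The sets that passed the filter only through week 6 saline had to be lower in every comparison with that pool. Ighm (97577_f_at), which passed only through the saline pools, had to be lower in every TNBS pool than in either saline pool. The median at week 6 was thus below 0 against 1 of the saline pools, and that at week 12 against both.

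A model over all 6 pools asked whether TNBS differed from saline beyond the spread between pools. With limma and Benjamini-Hochberg adjustment over 5463 probe sets, 0 of the 51 were called for TNBS (0% of all probe sets). At an unadjusted p under 0.05, 9 were lower (background 2.53%) and 0 higher (2.53%). These 9 were Igkv15-103 (101329_f_at), Ighm (100377_f_at and 97577_f_at), Ighg3 (93927_f_at and 97574_f_at), Ighv5-12, Ighv3-6, the set of Ighv1-53 and Ighv1-72 with Ighm, and the set shared by Ighg3, Igha and Ighm. Their limma log2 estimates lay between -0.83 ± 0.25 (SE) for Igkv15-103 and -0.53 ± 0.22 for Ighg3 (97574_f_at), with an adjusted p of 0.893 for each. On the arrays, 11 of the 51 (21.6%) had all 4 TNBS signals below all 3 saline signals, beside 6.39% of all probe sets. Of these 11, Ighg3 (101752_f_at) and the set shared by Ighg3, Igha and Ighm passed the filter only through week 6 saline. That shared set is also among the 9. Ighm (97577_f_at), in the 11 and in the 9, passed only through the saline pools, so its TNBS pools had to be lower. The term for later against week 6 arrays called 0 of the 51 after adjustment (0%), with 5 lower (background 6.13%) and 0 higher (4.89%) at an unadjusted p under 0.05. Its smallest p of all 5463 was that of 93086_at, with an estimate of -2.56 ± 0.29 (SE) and an adjusted p of 0.109 by limma. The interaction, which asks whether the TNBS difference at week 6 is unlike that of the later weeks, called 0 (0%), with 3 lower (0.604%) and 0 higher (1.08%) at an unadjusted p under 0.05. Those were Igkv9-120 (-1.37 ± 0.32), Ighv1-54 (-1.10 ± 0.31) and Igkv4-59 with Igkc (97566_f_at, -1.51 ± 0.42), each with an adjusted p of 0.999 by limma.

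At week 6 genes of B cells lay on the other side of saline from most immunoglobulin sets. All 11 B cell genes above the filter (of 17 on the array) were higher in week 6 TNBS than in week 6 saline. Their median log2 difference was 0.48, and 2 were at least 2-fold higher. Over the array 2612 of 5463 probe sets were higher, and 2.71% were at least 2-fold higher. Of the 11 B cell genes, Blk and Btk passed the filter only through the week 6 TNBS pool and had to be higher there. The other 9 passed through 2 pools or more. Fcer2a (CD23), Pax5 and Spib, among these 9, passed only through TNBS pools, that of week 6 included. They too had to be higher at week 6. Fcer2a had 108 at week 6 and 101 at week 12, and Pax5 121 and 104. Spib had 137 at week 6 and 113 at week 8. Ms4a1, which encodes the B cell surface protein CD20, had 400 in the week 6 TNBS pool, against 206 and 176 in week 6 saline. Cd79a, a signalling chain of the B cell receptor, had 354, against 267 and 327, and Cd74, the invariant chain of MHC class II that other cells make too, had 3571, against 2866 and 2692. Blnk, an adaptor of the B cell receptor, was 1.39-fold higher at week 6 and 2.03-fold higher in later than in week 6 saline. The summed B cell signal was 6096 in week 6 TNBS and 4364 to 5058 in the later TNBS pools, against 4553 and 4413 in week 6 saline and 4390 in later saline. Cd74 is its largest term, with 2185 to 3571 over the arrays. Without Cd74 the sum was 2525 in week 6 TNBS and 1814 to 2422 in the later TNBS pools, against 1687 and 1721 in week 6 saline and 2048 in later saline. Cd72, Cr2, Cxcr5 and Ebf1, also B cell genes, were under 50 on every array. B cell medians were -0.07, -0.06 and 0.03 at weeks 8, 10 and 12, close to those of all probe sets.

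Genes of plasma cells and antibody secretion stood highest at week 8. Of 12 above the filter (17 on the array), 9 were higher at week 8 (background 42.7%), with a median of 0.43. At least 2-fold higher were 2 (background 1.85%), and at week 6 the median was 0.04. Hspa5 (BiP), a chaperone first known for binding heavy chains, had 1503, 3147, 1015 and 1184 in the TNBS pools, against 1509 and 1574 in week 6 saline and 1647 in later saline. Hsp90b1, a chaperone of the endoplasmic reticulum, was 2.05-fold higher at week 8, and Pdia4, a disulphide isomerase, 2.18-fold higher. These chaperones serve every secreting cell. Prdm1 and Irf4, transcription factors of plasma cells, were under 50 on all arrays. Tnfrsf17, the survival receptor BCMA, did not pass the filter. Its signal was 88.3 at week 8, against 66.8 in later saline and 84.3 and 77.5 in week 6 saline. Sdc1 (CD138), a surface proteoglycan of plasma cells and epithelium, had a log2 difference of -0.29 at week 8, and Fkbp11, a folding enzyme of secretory cells, was 1.38-fold higher. The cell type behind the week 8 values was not tested. Xbp1, a factor of secretory cells, had 626 to 735 over all TNBS and saline pools, and Ell2, an elongation factor for secreted heavy chain RNA, was 1.40-fold higher at week 8. Summed over the list the signal was 11359 in week 8 TNBS, against 6999 in later saline.

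Genes that draw IgA cells to the gut or direct the switch to IgA were mostly under the filter, with 5 of 16 above it. Cxcl13, a chemokine for B cells, was 2.20-fold higher at week 6, and Cxcl12, a chemokine that keeps plasma cells, 1.63-fold higher. Madcam1, the vascular ligand of gut homing cells, had 124, 102, 73.9 and 87.5 in the TNBS pools, against 67.4 and 64.2 in week 6 saline and 40.5 in later saline, above saline on every array. Itgb7, an integrin of homing lymphocytes, had log2 differences of 0.03, -0.55, -0.25 and -0.22. Aldh1a1, an enzyme that makes retinoic acid, was 1.54-fold lower at week 6. Cxcl13 and Madcam1 passed the filter only through the TNBS pools of weeks 6 and 8 and had to be higher there. Madcam1 was named after its values were seen.

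Of the receptors and factors known to induce Pigr, 12 of 16 on the array were above the filter, and their medians were -0.01, -0.26, 0.14 and 0.02 in the 4 comparisons. Irf1, an interferon-induced factor that drives Pigr, was 1.47-fold higher at week 6. At week 8, 10 of the 12 were lower and 1 was higher, beside 56.7% of all probe sets lower, and Irf1, Rela (a subunit of NF-kappa B), Ifngr1 and Ifngr2 (both chains of the interferon gamma receptor) had log2 differences of -0.08, -0.32, -0.35 and -0.11. Usf1, which binds the E-box printed above, had 151, 116, 101 and 120 in the TNBS pools, against 134 and 174 in week 6 saline and 157 in later saline. Its 3 later TNBS signals lay below all saline arrays. Usf2, another upstream stimulatory factor on the list, went the other way later, with log2 differences of -0.43, 0.09, 0.25 and 0.27 in the 4 comparisons. Il1b, on the same list, passed the filter only through the week 6 TNBS pool. The part of these genes in the Pigr values was not tested.

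**Figure D5:**
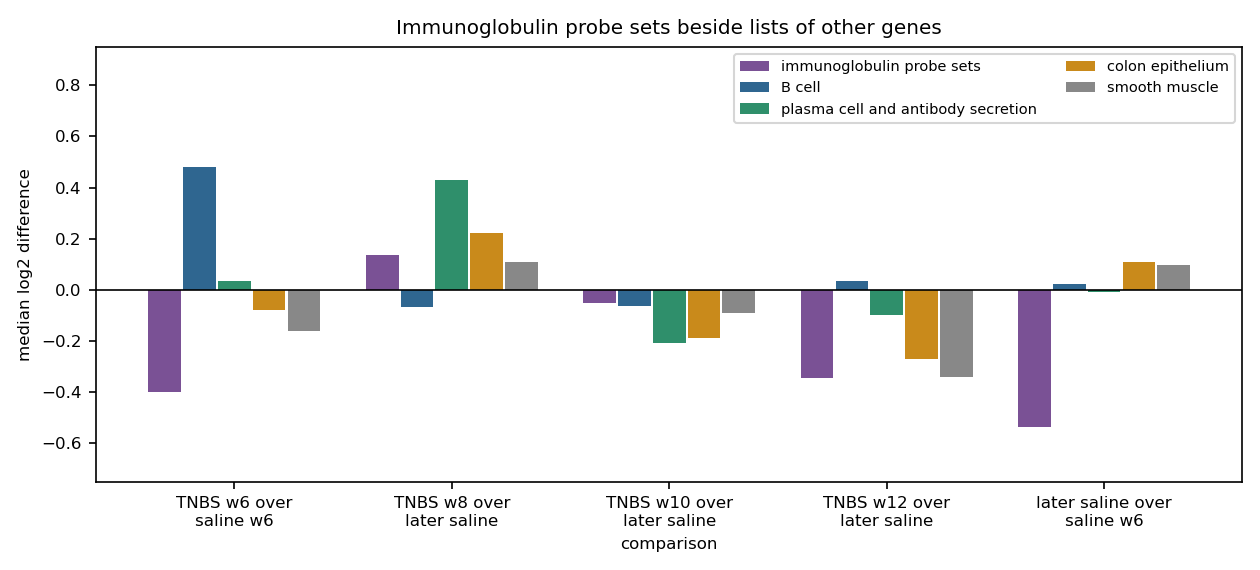
Median log2 difference of the immunoglobulin probe sets and of 4 gene lists in each comparison. The immunoglobulin median is below 0 and the B cell median is 0.48 at week 6, and the plasma cell and secretion list is highest at week 8 (0.43).

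The remaining lists had few genes above the filter or smaller medians. Of immunoglobulin receptors 2 of 9 passed the filter, Fcer2a (at least 2.16-fold higher at week 6, with saline under the floor) and Trim21 (1.48-fold higher). Both passed only through TNBS pools, that of week 6 included, and had to be higher at week 6. Of rearrangement and surrogate light chain genes 3 of 9 passed, Rag1, Cd79a and Cd79b, and Rag1 was under the floor in week 6 TNBS, at least 2.06-fold below week 6 saline. Rag1 passed the filter only through that saline pool and had to be lower elsewhere. T cell genes had 4 of 12 above the filter (Cd4 only through week 6 TNBS) and medians of 0.24, -0.35, 0.02 and -0.08. Zap70 and Thy1 passed only through the TNBS pools of weeks 6 and 10 and had to be higher there. Colon epithelium, where Pigr is made, had medians of -0.08, 0.22, -0.19 and -0.27, and smooth muscle of -0.16, 0.11, -0.09 and -0.34. At week 12 both tissue lists and the immunoglobulin sets were below saline together, and the part of tissue composition in the week 12 values was not tested. No gene of these 9 lists was called by limma in any of the 3 terms after adjustment.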

How the data were processed

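RNA of 6 pools was measured on 7 oligonucleotide arrays. The deposited values are linear signal intensities, which the authors computed for each probe set in MAS5, per the submitters' processing notes, and scaled to a target of 150. The 2% trimmed mean was checked and lay between 150.09 and 150.11 on every array. A genome build is not given in the sources used here, and detection calls were not used.

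Control probe sets (66 of 12488) were left out. Segments and chains follow the platform annotation of 2016, in which 10833 probe sets have 1 gene symbol, 396 several and 1193 none, and all 73 probe sets studied matched RefSeq symbols of GRCm38.p6 by Entrez identifier. Signals under 50 were set to 50 before log2, both week 6 saline arrays were averaged on that scale, and probe sets with 100 or more in the highest pool were kept. No probe sets were merged. A fold against a pool at the floor is written as "at least".

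Matched comparisons have 1 pool a side and count 2-fold differences. limma 3.58.1 in R 4.3.3 (two-sided moderated tests, variance trend on intensity) fitted TNBS with the control set as covariate (3 residual degrees of freedom) and their interaction (2), over 5463 probe sets, with Benjamini-Hochberg adjusted p-values and a threshold of 0.05. The 4 times of TNBS stand in as replicates there, so p-values reflect variation among pools, not among mice. The number of arrays limits the precision.

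The members and the gene lists were chosen with earlier results of these data known. Named by rule were all constant segment sets, Jchain and Pigr, the 4 highest and 4 lowest variable sets above the floor in each comparison, the 6 variable sets of highest mean signal, and up to 4 genes per list by mean signal. Igkv4-68, Igkv8-30, 1 Igkv10-96 set (102157_f_at), Madcam1, Pdia4, Usf1, Usf2, Sdc1, Fkbp11, Il1b, Blk, Btk, Pax5, Spib and the list genes that did not pass the filter were named after their values were seen. Lists used 1 probe set a gene. Alternatives changed the floor, the filter, the scaling, the saline pool, the arrays and the probe sets included, and the scripts were tested on simulated data.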

Additional observations from a re-analysis of the deposited data

Results flagged for a closer look

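In 4 kappa probe sets the week 6 TNBS pool lay below its saline pool while all 3 later TNBS pools lay above theirs. The difference between week 6 and later weeks was not tested by these opposite signs alone, the 3 later comparisons share 1 saline pool, and none of the 4 passed the interaction test of limma after adjustment. The week 6 log2 differences were -0.48 for 101640_f_at (Igkv4-59, Igkv4-72 and Igkc), -0.35 for 102585_f_at (Igkv4-59, Igkv4-70 and Igkc), -1.21 for 97566_f_at (Igkv4-59 and Igkc) and -0.36 for Igkv1-133 (99405_at). In the later weeks they were 0.87, 1.06 and 0.12 for 101640_f_at, 0.39, 0.87 and 0.12 for 102585_f_at, 0.24, 0.59 and 0.08 for 97566_f_at, and 1.25, 1.06 and 0.28 for Igkv1-133. In all 4 the later saline signal was lower than both week 6 saline signals.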

How the results depend on the processing

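The use of the other saline pool moved the results most. Against it week 6 had a median of 0.10 with 2 probe sets at least 2-fold higher and 1 lower, week 8 a median of -0.50 (1 higher, 8 lower), week 10 of -0.52 (1 higher, 9 lower) and week 12 of -0.96 (21 lower). It also turned Igkv14-111 at week 6 (0.11), 101640_f_at at week 10 (-0.36) and Igkv1-133 at week 10 (-0.18). With a floor of 25, 2 were higher at week 6 and 2 lower at week 10. With a floor of 100, 0 were higher at week 6, 1 higher at week 8 and 0 lower at week 10. On log2(value + 50), 0 were higher and 4 lower at week 6, 0 lower at week 10 and 0 lower at week 12. Equal array medians, which shift all probe sets by 0.17 at week 8 and 0.13 at week 10, gave 0 higher at week 6, 5 higher at week 8, 7 higher at week 10 and 0 lower at week 12. Without probe sets of a shared suffix (17 left), 0 were lower at weeks 6, 10 and 12, and 2 were lower in later than in week 6 saline. Without 1 of the week 6 saline arrays, 0 to 1 were higher at week 6, 9 to 11 lower at week 6 (median -0.46 to -0.40), and 10 were lower in later saline. The TNBS term called 0 under every alternative run, each pool left out included. The interaction called 5 with a floor of 100 and 3 with no filter, all with 3 of 3 later TNBS pools at the floor. Of 2303 single values compared, 2213 kept direction and side of 2-fold, 33 dropped below it, 54 passed it and 3 turned. The cause was not tested. The array repeat (SD 0.27 on the log2 scale over the probe sets) is the only error measured, and 14 probe sets have no signal above 50. No paired analysis was possible because the groups share fewer than 2 replicate numbers.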
